A study of Mus musculus with 9 samples.

Results

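The Slc25 genes encode the mitochondrial carrier family, and 44 of them were represented on the arrays of mouse tibialis anterior described here. Members were probe sets, each a group of short DNA probes for 1 transcript or several similar ones, whose platform annotation gave exactly 1 gene symbol made of Slc25a and a number. This rule found 93 of the 45037 probe sets and 44 of the 18193 genes with such a probe set. For each gene, the probe set with the highest mean over the 9 arrays stood for the gene, and 21 of the 44 genes had only 1 probe set. Of the 44 genes, 40 passed a filter that required a mean signal of 50 in at least 1 group, and their probe sets numbered 80 of 93. The signal is a linear intensity in arbitrary units, scaled by the authors to the same trimmed mean on every array.

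The arrays came from 15-week-old C57BL/6J male mice, 3 per group and 1 array per mouse. The DEX + TE group received the glucocorticoid dexamethasone (DEX) by intraperitoneal injection at 5 mg/kg daily for 7 d and ate an AIN93-based diet with 2% turmeric extract (TE). The DEX group received the same injections on the AIN93-based diet without TE, and the control group received saline on that diet. The methods have mice on TE from 5 d ahead of the first injection, and the sample titles describe TE as following DEX. Mice with body and muscle weight near the average of their group were chosen for the arrays, so the spread between the 3 mice may be smaller than in the whole group. There was no group fed TE without DEX, and TE could therefore be compared only among injected mice.

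Slc25 proteins sit mostly in the inner mitochondrial membrane and exchange or carry nucleotides, phosphate, keto acids, amino acids, carnitine esters, coenzymes, iron and glutathione between the cytosol and the matrix. Most share a fold of repeated pairs of membrane helices, and each is named by the substrate it carries where that is known. In skeletal muscle the ADP/ATP and phosphate carriers feed ATP synthase and export its product, and the aspartate-glutamate and oxoglutarate carriers form the malate-aspartate shuttle that brings reducing equivalents from glycolysis into the matrix.

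The arrays differed slightly in brightness beneath their shared scale. Array medians were 84.7 to 95 in the DEX + TE group, 71.3 to 77.7 in the DEX group and 76 to 86.2 in the control group. Between 58.5% and 65.2% of probe sets reached a signal of 50 on each array, no array held the values of another, and every pair of arrays correlated at r of 0.9196 or above on the log2 scale. As a sign of RNA integrity, the beta-actin control probe sets gave a log2 3′ over 5′ ratio that was 0.38 to 0.54 on the DEX + TE arrays, 0.1 to 0.43 on the DEX arrays and 0.25 to 0.33 on the control arrays. All 6 skeletal muscle fibre markers (Ckm, Acta1, Myh4, Mb, Tnnt3 and Pvalb) passed the filter on this tissue, and their probe sets summed to 255132 or more on every array.

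No Slc25 gene passed the test for DEX injection in its brightest probe set, although most stood lower by value. Dimmer probe sets of Slc25a30 did pass and are described below. The test was limma across all 29269 probe sets that passed the filter, and a call needed a Benjamini-Hochberg adjusted p under 0.05 together with a log2 fold change of 0.6 or more in either direction. With DEX against control, 0 of 40 members were called, against 0.6% of the 13662 genes tested. At an unadjusted limma p under 0.05, which does not allow for the number of genes, 9 of 40 members were lower (22.5%, against 9.15% of all genes) and 1 was higher (2.5%, against 6.16%). In 15 of 40 members every DEX array lay below every control array (37.5%, against 13.6% of all genes), and in 2 every DEX array lay above (5%, against 9.66%). The median log2 fold change was −0.17 over the members, with 31 of 40 below 0, and −0.03 over all genes, with 54.5% below 0. In bulk muscle, fewer cells of a type and less RNA per cell cannot be told apart, which holds for every level given here.

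TE supplementation left the median of the family close to that of all genes. With DEX + TE against DEX, 0 of 40 members were called, against 0.00732% of the genes. At an unadjusted p under 0.05, 4 members were higher (10%, against 5.96% of genes) and 1 was lower (2.5%, against 1.49%). In 5 members every DEX + TE array lay above every DEX array (12.5%, against 9.73%), and in 1 below (2.5%, against 5.27%). The median log2 fold change was 0.03 over the members and 0.04 over the genes. The DEX arrays enter both this comparison and that with the control group, so a DEX level that is low by chance moves the values of both.

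Set against the control group, the DEX + TE group again had 0 of 40 members called, against 0.454% of genes. At an unadjusted p under 0.05, 8 members were lower (20%, against 6.78% of genes) and 4 were higher (10%, against 7.64%), and the median was −0.11 over the members and 0.02 over the genes. With the 6 injected mice of both groups together against the 3 control mice, 0 of 40 were called, against 1.07% of genes. At an unadjusted p under 0.05, 12 were lower (30%, against 8.93%) and 1 was higher (2.5%, against 7.79%). In 11 members all 6 injected arrays lay below all 3 control arrays (27.5%, against 7.44%), and in 1 above (2.5%, against 5.32%). These 11 were Slc25a3, Slc25a5, Slc25a11, Slc25a12, Slc25a22, Slc25a26, Slc25a30, Slc25a37, Slc25a39, Slc25a40 and Slc25a42, and the 1 was Slc25a36. The median was −0.19 over the members and −0.01 over the genes. This comparison is built from the same arrays as the others and is not a separate line of evidence.

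**Figure D1:**
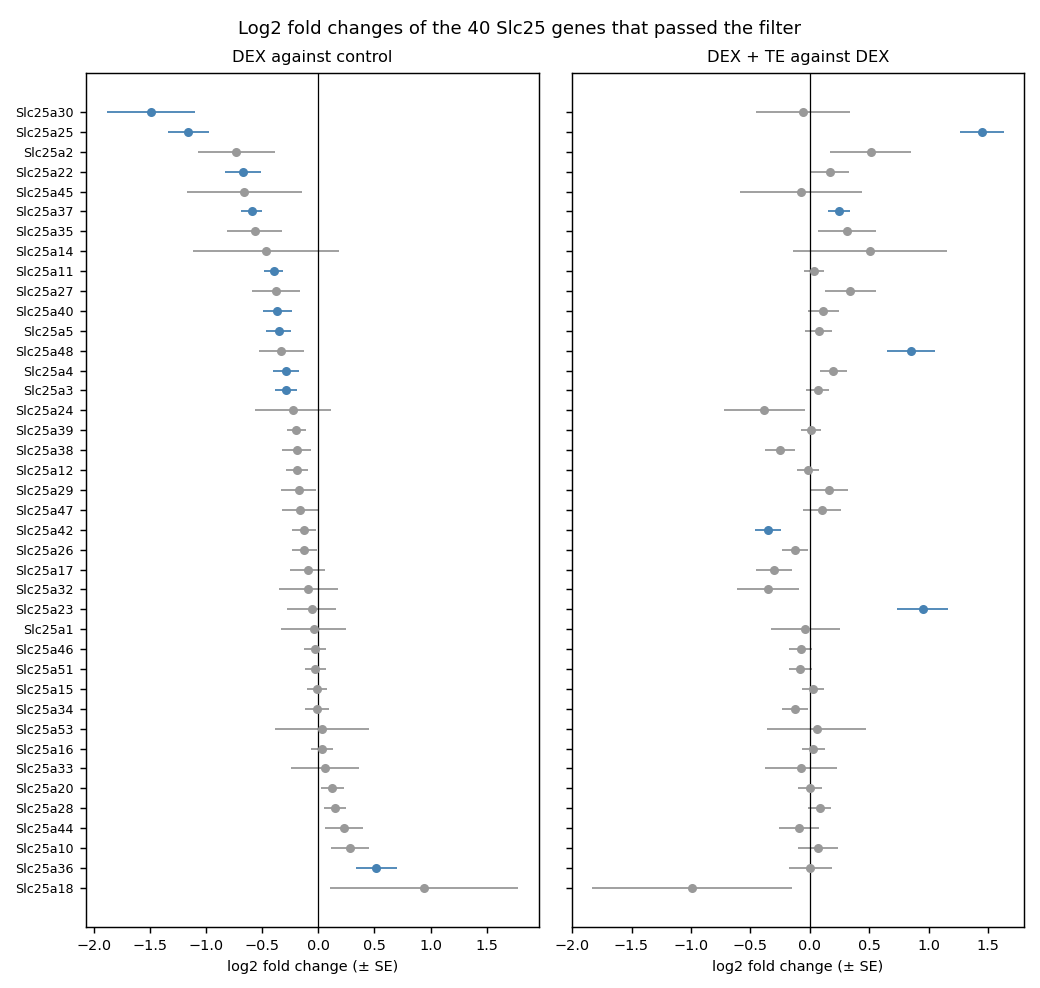
Log2 fold changes of the 40 Slc25 genes that passed the filter, sorted by DEX against control, with standard errors from limma; each panel is 1 comparison and blue marks an unadjusted p under 0.05. With DEX against control 31 of 40 genes lie below 0, from Slc25a30 at −1.49, and with DEX + TE against DEX Slc25a25 lies farthest above 0, at 1.45.

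The arrays' scaling bears on these counts. Centring each array on its median in place of the deposited scale moved the median of all probe sets by 0.1 with DEX against control and by −0.25 with DEX + TE against DEX. With DEX against control, the members' median was then −0.07, against 0.07 over the genes, with 23 of 40 members lower. On that scale 8 members lay wholly below the control arrays (20%, against 6.92% of genes) and 4 wholly above (10%, against 13.7%). Quantile normalization gave a median of −0.11 over the members and −0.01 over the genes, with 28 of 40 lower. With DEX + TE against DEX, centring gave −0.23 over the members and −0.22 over the genes, with 3 members wholly above the DEX arrays (7.5%, against 2.9% of genes) and 16 wholly below (40%, against 30.3%), so the direction of that comparison depends on the scale for the genes and the members alike. The members of the carrier family with a mean signal of at least 5000 were 6. Their median with DEX against control was −0.24 on the deposited scale, against −0.08 over the 986 genes that bright. It was −0.06 against −0.02 after quantile normalization and −0.14 against 0.03 with median centring. Quantile normalization gives every array the same set of values, so the very brightest probe sets have little room to differ between arrays there. A difference near 0 on that scale therefore cannot show whether such a probe set changed.

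Slc25a25, a calcium-regulated carrier that exchanges ATP-Mg for phosphate and so sets the nucleotide pool of the matrix, had the largest difference with TE supplementation. Its brightest probe set, 1424735_at, had signals of 1970, 2270 and 1754 in DEX + TE mice, 748, 876 and 588 in DEX mice and 1864, 1454 and 1583 in control mice. The DEX arrays lay below all others, and the DEX + TE and control arrays overlapped. With DEX against control the log2 fold change was −1.16 ± 0.18 (SE, n = 3 each), a fold of 0.448, and the adjusted p of 0.0524 in limma lay just outside the threshold. With DEX + TE against DEX it was 1.45 ± 0.18, a fold of 2.73, with an adjusted p of 0.11. DEX + TE differed from control by 0.29 ± 0.18, with an adjusted p of 0.516. The study lists this gene from these same arrays, so its values here are not independent evidence.

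The call of Slc25a25 depended on how the table was tested. With DEX against control it passed when only probe sets with a group mean of 100 were tested (adjusted p = 0.0237 in limma), with the mean of all arrays at 50 or more (0.0385), with an offset of 16 (0.0427) and with a mean-variance trend (0.00102), and it failed in the other settings, whose adjusted p in limma reached 0.998 with all its probe sets averaged, where the log2 fold change was 0.00. With DEX + TE against DEX it passed only with the mean-variance trend (adjusted p = 0.00716), and the adjusted p ranged up to 0.503. An exact permutation of the 3 against 3 arrays gave p = 0.1 in each comparison, the smallest that this design allows.

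The other probe sets of Slc25a25 did not all follow the brightest. Probe set 1447856_x_at had 178, 459 and 348 in DEX + TE mice, 123, 165 and 99.3 in DEX mice and 189, 228 and 268 in control mice, with the DEX arrays again lowest. Its log2 fold change was −0.84 ± 0.36 with DEX against control and 1.27 ± 0.36 with DEX + TE against DEX (adjusted p = 0.35 and 0.5 in limma). Probe set 1454284_at ran the other way, with 63.5, 75 and 31.6 in DEX + TE mice, 74.8, 77.1 and 50.6 in DEX mice and 15.1, 15.1 and 19.9 in control mice. All its control arrays lay under 50, so only a bound can be given, and the signal was at least 1.33-fold higher in DEX mice than in control mice and at least 1.06-fold higher in DEX + TE mice than in control mice. It passed the filter only through the injected groups, where it is higher, so its calls are a description and support nothing. With all injected mice against control limma called it (adjusted p = 0.0419), as did Rank Product, the method of the study, run here on the deposited intensities. The limma call was lost without the filter (adjusted p = 0.0987), under either scaling, with the mean-variance trend and when any 1 array other than DEX + TE replicate 3 was left out (0.0241 to 0.133 over the 9 arrays).

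**Figure D2:**
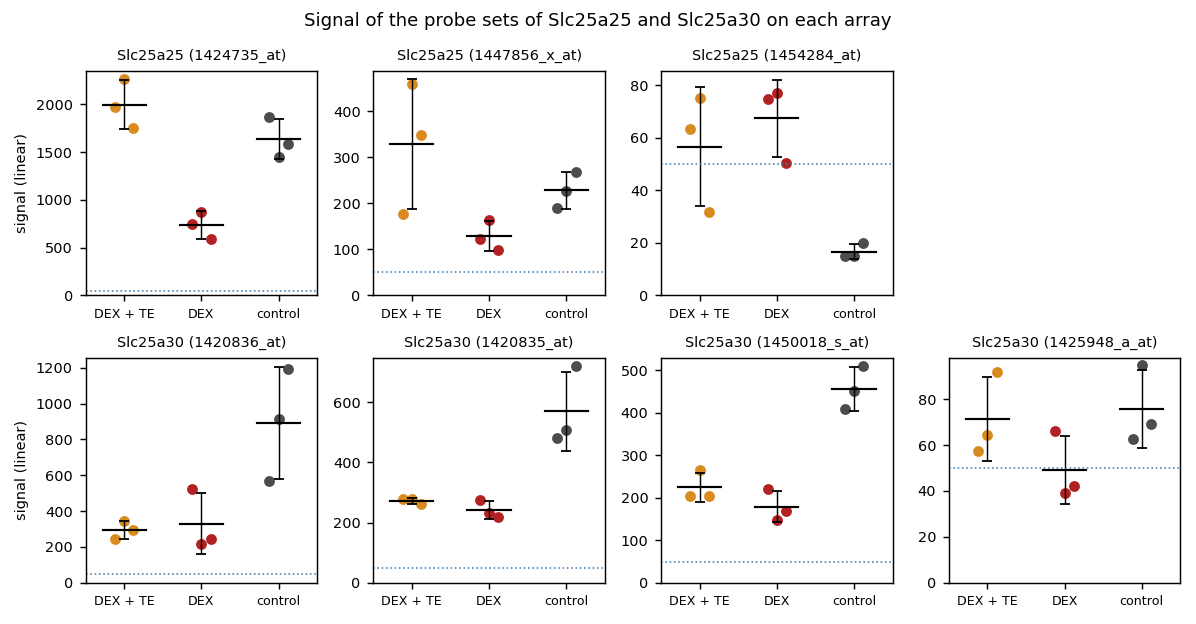
Signal of each array (linear intensity) for the 3 probe sets of Slc25a25 and 4 of Slc25a30, with DEX + TE, DEX and control mice from left to right; points are mice, horizontal bars are means, error bars are SD (n = 3) and the dotted line is a signal of 50. The DEX arrays are lowest for 1424735_at and 1447856_x_at, whereas the control arrays of 1454284_at lie between 15.1 and 19.9, under the line.

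RefSeq gives Slc25a25 several transcription starts on the minus strand of chromosome 2 (GRCm38.p6), and the start windows are shown because its probe sets moved in opposite directions. Each window runs from 250 bases before to 50 bases after a start, and start 2 lies 20319 bases and start 3 lies 27404 bases downstream of start 1. The windows of Slc25a36 and Slc25a30 are shown with them, as the member whose injected arrays lay wholly above control and the member with called probe sets. Capitals mark TGACGTCA, the cAMP response element, and all sequences run 5′ to 3′ on the minus strand.
Slc25a25 start 1, chr2:32451421-32451720: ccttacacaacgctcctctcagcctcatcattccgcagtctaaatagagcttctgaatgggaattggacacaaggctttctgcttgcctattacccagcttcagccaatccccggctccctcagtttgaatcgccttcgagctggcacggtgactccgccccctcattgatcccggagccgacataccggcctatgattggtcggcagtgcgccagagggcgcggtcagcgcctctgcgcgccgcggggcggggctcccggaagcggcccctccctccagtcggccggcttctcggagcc
Slc25a25 start 2, chr2:32431102-32431401: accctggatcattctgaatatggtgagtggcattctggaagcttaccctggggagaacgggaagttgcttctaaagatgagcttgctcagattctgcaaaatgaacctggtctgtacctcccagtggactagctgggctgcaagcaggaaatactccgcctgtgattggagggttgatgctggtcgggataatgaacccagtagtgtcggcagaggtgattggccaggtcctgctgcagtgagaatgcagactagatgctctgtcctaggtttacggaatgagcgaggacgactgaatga
Slc25a25 start 3, chr2:32424017-32424316: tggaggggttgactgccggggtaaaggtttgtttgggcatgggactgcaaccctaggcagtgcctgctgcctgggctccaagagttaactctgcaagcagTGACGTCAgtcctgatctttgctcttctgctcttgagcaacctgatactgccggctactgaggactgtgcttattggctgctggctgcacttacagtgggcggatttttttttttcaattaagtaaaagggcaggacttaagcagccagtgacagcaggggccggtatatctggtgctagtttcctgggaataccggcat
Slc25a36, chr9:97110992-97111291: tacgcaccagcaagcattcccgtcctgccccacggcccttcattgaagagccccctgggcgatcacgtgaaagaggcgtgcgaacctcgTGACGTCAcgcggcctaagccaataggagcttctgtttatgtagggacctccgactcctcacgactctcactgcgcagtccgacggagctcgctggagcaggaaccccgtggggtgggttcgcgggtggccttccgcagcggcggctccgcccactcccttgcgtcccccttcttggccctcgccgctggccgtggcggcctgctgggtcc
Slc25a30, chr14:75786988-75787287: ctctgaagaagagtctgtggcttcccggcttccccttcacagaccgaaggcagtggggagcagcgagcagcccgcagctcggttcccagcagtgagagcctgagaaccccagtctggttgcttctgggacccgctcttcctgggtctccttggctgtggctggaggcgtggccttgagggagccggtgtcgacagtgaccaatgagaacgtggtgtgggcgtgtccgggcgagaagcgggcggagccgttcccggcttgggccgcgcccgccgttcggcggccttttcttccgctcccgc

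The element TGACGTCA stood 150 bases before start 3 of Slc25a25 and 161 bases before the start of Slc25a36, and in no other of the 43 windows used for 34 of the members. Across all 32851 mouse windows of the same length it was found in 1.79%. Chromosome 18, where Slc25a2 and Slc25a46 lie, was left out of the search for member windows but not of the 32851. The full glucocorticoid response element, a palindrome of 2 half-sites, was in 0 of the 43 windows and in 0.00913% of all windows, and its half-site AGAACA, searched alone and contained in the full element, was in 3 of 43 and in 19% of all. The GC box GGGCGG was in 37 of 43 windows and in 35.7% of all, and CCAAT in 21 of 43 and in 37.4% of all. Both strands were searched for each motif. A match is a description of the letters, and the probe sets were not placed on these starts.

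Slc25a30, a carrier related to the uncoupling proteins and first described in kidney, was the member with the largest difference after DEX injection. Its brightest probe set, 1420836_at, had 244, 343 and 294 in DEX + TE mice, 524, 216 and 246 in DEX mice and 569, 914 and 1190 in control mice. All injected arrays lay below the control arrays, by a narrow margin for the first DEX mouse. The log2 fold change was −1.49 ± 0.39 with DEX against control (adjusted p = 0.159 in limma) and −1.52 ± 0.34 with all injected mice against control (adjusted p = 0.0949). DEX + TE and DEX differed by −0.06 ± 0.39 (adjusted p = 0.982).

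Other probe sets of Slc25a30 passed the test. Of the 80 Slc25 probe sets tested, 2 were called with DEX against control (2.5%, against 0.502% of all probe sets tested), and both belonged to this gene. Probe set 1450018_s_at had 205, 265 and 204 in DEX + TE mice, 220, 148 and 170 in DEX mice and 408, 452 and 511 in control mice, and fell in DEX mice by 1.36 ± 0.19 on the log2 scale (adjusted p = 0.0341 in limma). Probe set 1420835_at had 278, 278 and 261 in DEX + TE mice, 274, 232 and 217 in DEX mice and 482, 506 and 721 in control mice, and fell by 1.22 ± 0.17 (adjusted p = 0.0397). These 2 and the brightest share 1 annotated transcript accession and count as 1 gene. With 1 array left out in turn, the log2 fold change stayed between −1.52 and −1.04, but the call of 1420835_at was lost whichever array it was (adjusted p = 0.0598 to 0.131 in limma), and so was that of 1450018_s_at unless it was DEX replicate 1 (0.0368 to 0.112). Both calls were also lost with median centring, with no filter on low signal and with only the DEX and control arrays in the fit. The dimmer 1425948_a_at had a log2 fold change of −0.64 ± 0.28 (adjusted p = 0.348), and 1425949_at did not pass the filter.

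With all injected mice against control, 3 of the 80 probe sets were called (3.75%, against 0.929%), the same 2 of Slc25a30 (both with an adjusted p of 0.0266 in limma) and 1454284_at of Slc25a25, which the filter admitted only through the injected groups. Leaving out any 1 array cut this count to between 0 and 2. With DEX + TE against control 0 of 80 were called, against 0.379%. The other relatives of the uncoupling proteins were lower by value after DEX injection in their brightest probe sets, but not in all. Slc25a27, found mainly in brain, had 106, 104 and 116 in DEX + TE mice, 88.4, 75.9 and 94.3 in DEX mice and 118, 80.8 and 146 in control mice. Every DEX + TE array lay above every DEX array, with a log2 fold change of 0.34 ± 0.21 (adjusted p = 0.746 in limma) that changed sign when all probe sets of the gene were averaged. With DEX against control this probe set had −0.38 ± 0.21, whereas 1454230_a_at, the other that passed the filter, had 0.50 ± 0.30 (adjusted p = 0.464 and 0.502), and the 2 that did not pass were also above 0. Slc25a14, also best known from brain, had 168, 61.7 and 135 in DEX + TE mice, 30.8, 139 and 114 in DEX mice and 155, 118 and 70 in control mice, with full overlap.

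The carriers of adenine nucleotides and phosphate were lower by value in DEX mice on the deposited scale, and none passed the test. This group includes Slc25a25 and its relatives Slc25a23 and Slc25a24. All 6 members that passed the filter had a log2 fold change below 0 with DEX against control, with a median of −0.29. Of the 6, 4 reached an unadjusted p under 0.05, which 9.15% of all genes did in that direction. The shared direction depended on the scale and the probe sets. Slc25a23 stood at 0.04 with either other scaling, and Slc25a25, 1 of the 4, at 0.00 with its probe sets averaged. Slc25a4, the ADP/ATP carrier of heart and skeletal muscle, had 60298, 63525 and 65375 in DEX + TE mice, 49341, 60626 and 55443 in DEX mice and 73956, 63611 and 64515 in control mice. Its DEX arrays lay below the control arrays, with a log2 fold change of −0.29 ± 0.12 (adjusted p = 0.316 in limma). The sign turned to 0.12 after quantile normalization, which leaves so bright a probe set little room to differ, and it was −0.19 with median centring. DEX + TE differed from DEX by 0.20 ± 0.12 (adjusted p = 0.724).

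Slc25a3, the phosphate carrier, had 33578, 34105 and 34188 in DEX + TE mice, 29949, 33534 and 34056 in DEX mice and 41707, 36677 and 40838 in control mice. All 6 injected arrays lay below the control arrays, and the log2 fold change was −0.29 ± 0.10 with DEX against control (adjusted p = 0.248 in limma). It ran from −0.53 to −0.01 over the other settings. The −0.01 was after quantile normalization, which leaves so bright a probe set little room to differ. The much dimmer 1440302_at had −0.76 ± 0.19 with DEX against control (adjusted p = 0.149), and its injected arrays also lay below the control arrays. Slc25a5, the ADP/ATP carrier of many proliferating tissues, had 3622, 3445 and 3458 in DEX + TE mice, 3081, 3712 and 3244 in DEX mice and 4278, 3917 and 4601 in control mice. It also kept injected and control arrays apart, at −0.35 ± 0.11 with DEX against control (adjusted p = 0.219). Its other probe sets ranged between −0.36 and 0.04 in that comparison.

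Slc25a23 and Slc25a24, calcium-regulated ATP-Mg/phosphate carriers like Slc25a25, had other patterns. Slc25a23 had 155, 138 and 169 in DEX + TE mice, 99.9, 71.9 and 69.8 in DEX mice and 69.8, 74.5 and 109 in control mice, so the DEX + TE arrays stood above the other 6. Its log2 fold change was 0.95 ± 0.22 with DEX + TE against DEX (adjusted p = 0.389 in limma) and −0.06 ± 0.22 with DEX against control. Slc25a24 had 250, 517 and 351 in DEX + TE mice, 389, 406 and 637 in DEX mice and 403, 546 and 727 in control mice, and all groups overlapped. Its log2 fold change with DEX + TE against DEX was −0.38 ± 0.34 (adjusted p = 0.819) and turned to 0.15 with its probe sets averaged. Slc25a31, the ADP/ATP carrier of testis, Slc25a41 and Slc25a54 did not pass the filter.

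Among carriers of iron and glutathione, 3 of 4 were lower by value with DEX against control. Slc25a37, mitoferrin 1, which imports iron for haem and iron-sulphur cluster synthesis, had 528, 552 and 573 in DEX + TE mice, 469, 437 and 493 in DEX mice and 682, 716 and 710 in control mice. The groups did not overlap in any comparison, and the SD was 22.4 in DEX + TE mice, 28.3 in DEX mice and 17.8 in control mice. The log2 fold change was −0.59 ± 0.09 with DEX against control (adjusted p = 0.051 in limma), just outside both thresholds. It was 0.24 ± 0.09 with DEX + TE against DEX (adjusted p = 0.602), and −0.01 when arrays were centred on their medians. With all injected mice against control it was −0.47 ± 0.08 with an adjusted p of 0.0479, which passed for p but not for size. Of the erythroid markers, Hba-a1 was under 50 on all 9 arrays, and the 3 markers on the array summed to 25 to 165 in DEX + TE mice, 46 to 208 in DEX mice and 121 to 191 in control mice. Their part in the level of this gene, which is abundant in red cell precursors, was not tested.

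Slc25a28, mitoferrin 2 of most other tissues, stood the other way by value, with 1512, 1501 and 1405 in DEX + TE mice, 1421, 1350 and 1395 in DEX mice and 1369, 1179 and 1212 in control mice. Its log2 fold change was 0.15 ± 0.10 with DEX against control (adjusted p = 0.523 in limma), and the arrays overlapped. Slc25a39, a glutathione importer, had 6388, 6325 and 6476 in DEX + TE mice, 6157, 6589 and 6284 in DEX mice and 7544, 7058 and 7204 in control mice. Injected and control arrays of this probe set did not overlap, at −0.19 ± 0.07 (adjusted p = 0.269 with all injected mice against control), but the mean of all 5 probe sets gave 0.05. Slc25a40, its closest relative, had 289, 308 and 328 in DEX + TE mice, 243, 320 and 296 in DEX mice and 391, 340 and 370 in control mice, at −0.31 ± 0.11 in the same comparison (adjusted p = 0.25).

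Of the amino acid carriers, 8 of 9 passed the filter and 6 of those were lower by value with DEX against control. Slc25a22, a glutamate carrier that moves glutamate with a proton, had 543, 541 and 520 in DEX + TE mice, 416, 436 and 592 in DEX mice and 769, 658 and 853 in control mice. All 6 injected arrays lay below the control arrays, with a log2 fold change of −0.67 ± 0.16 with DEX against control (adjusted p = 0.137 in limma) and −0.58 ± 0.14 with all injected mice against control (adjusted p = 0.11). It was called with the mean-variance trend (adjusted p = 0.0287 in limma, DEX against control). Slc25a18, the second glutamate carrier, was near background, with 27.9, 43.8 and 16 in DEX + TE mice, 29.2, 72.4 and 72.6 in DEX mice and 8.7, 27.8 and 89.6 in control mice. It passed the filter only through the DEX group. All its DEX + TE arrays lay under 50, so that its signal was at least 1.07-fold lower there than in DEX mice, and the arrays overlapped.

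Slc25a12, the aspartate-glutamate carrier of the malate-aspartate shuttle in muscle and brain, had 15508, 14778 and 15010 in DEX + TE mice, 14044, 15738 and 16075 in DEX mice and 18240, 17113 and 16909 in control mice. Every injected array lay below every control array, at −0.20 ± 0.08 with all injected mice against control (adjusted p = 0.302 in limma), and −0.02 with its probe sets averaged. Its liver counterpart Slc25a13 did not pass the filter. Slc25a2, an ornithine carrier, had 56.5, 142 and 101 in DEX + TE mice, 56.7, 54.2 and 90.1 in DEX mice and 106, 105 and 113 in control mice, at −0.73 ± 0.34 with DEX against control and 0.51 ± 0.34 with DEX + TE against DEX (adjusted p = 0.385 and 0.762).

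Slc25a38, which carries glycine for haem synthesis, had 408, 448 and 494 in DEX + TE mice, 568, 481 and 556 in DEX mice and 552, 609 and 674 in control mice. The DEX + TE arrays lay below the control arrays, and the log2 fold change was −0.25 ± 0.13 with DEX + TE against DEX (adjusted p = 0.697 in limma). Slc25a44, a carrier of branched-chain amino acids, had 757, 785 and 790 in DEX + TE mice, 916, 809 and 769 in DEX mice and 866, 732 and 557 in control mice, with overlap between DEX and control. Slc25a15, the main ornithine carrier, stayed within 1296 and 1504 on all 9 arrays, and Slc25a29, a carrier of basic amino acids, within 452 and 680. A dimmer probe set of Slc25a29, 1423979_a_at, had −0.52 ± 0.14 with DEX against control (adjusted p = 0.158), whereas the brightest had −0.18 ± 0.16.

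Slc25a11, the oxoglutarate-malate exchanger of the malate-aspartate shuttle, was the member with the lowest p among carriers of keto acids with DEX against control. It had 7365, 7088 and 7053 in DEX + TE mice, 7037, 6678 and 7268 in DEX mice and 9227, 8971 and 9461 in control mice. The injected arrays lay in a narrow band well below the control arrays and overlapped each other. The log2 fold change was −0.40 ± 0.09 with DEX against control (adjusted p = 0.106 in limma), −0.38 ± 0.07 with all injected mice against control (adjusted p = 0.0711) and 0.04 ± 0.09 with DEX + TE against DEX (adjusted p = 0.939). Both scalings left the first of these between −0.40 and −0.30. Slc25a10, the dicarboxylate carrier, had 363, 310 and 472 in DEX + TE mice, 332, 357 and 389 in DEX mice and 268, 292 and 325 in control mice, so that every DEX array lay above control, at 0.29 ± 0.17 (adjusted p = 0.49). Over the other settings its log2 fold change in that comparison ran from 0.03 to 0.39, with an adjusted p in limma of up to 0.986. Slc25a1, the citrate carrier, overlapped in all groups, with a log2 fold change of −0.04 ± 0.29 with DEX against control.

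Slc25a36, a carrier of pyrimidine nucleotides, was the 1 member whose injected arrays all stood above the control arrays. It had 3120, 2678 and 2811 in DEX + TE mice, 3420, 3142 and 2166 in DEX mice and 2127, 1851 and 2015 in control mice, so the lowest DEX array was close to the highest control array. The log2 fold change was 0.52 ± 0.18 with DEX against control (adjusted p = 0.253 in limma) and 0.52 ± 0.16 with all injected mice against control (adjusted p = 0.176). Its other probe sets had the same sign, at 0.71 ± 0.17 and 0.43 ± 0.16 with DEX against control (adjusted p = 0.139 and 0.299). Slc25a33, which also carries pyrimidine nucleotides, had 998 on the array of the first DEX mouse and 2182 and 2103 on the others, against 1461 to 1730 in control mice.

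Slc25a20, the carnitine-acylcarnitine carrier that admits fatty acyl groups for oxidation, had 9204, 8764 and 9326 in DEX + TE mice, 8430, 9270 and 9617 in DEX mice and 8915, 8464 and 7679 in control mice, and the arrays overlapped. Its log2 fold change was 0.13 ± 0.10 with DEX against control (adjusted p = 0.617 in limma) and 0.00 ± 0.10 with DEX + TE against DEX (adjusted p = 1). Slc25a42, a carrier of coenzyme A, had 388, 375 and 321 in DEX + TE mice, 426, 473 and 484 in DEX mice and 497, 508 and 500 in control mice, and no 2 groups overlapped. It was the 1 member whose DEX + TE arrays lay wholly below the DEX arrays, at −0.35 ± 0.11 (adjusted p = 0.535), and DEX + TE differed from control by −0.48 ± 0.11 (adjusted p = 0.143).

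Slc25a32, a carrier of folate and FAD, had 208, 282 and 132 in DEX + TE mice, 261, 235 and 261 in DEX mice and 261, 304 and 242 in control mice, at −0.35 ± 0.26 with DEX + TE against DEX (adjusted p = 0.784 in limma), and between −0.61 and −0.06 with 1 array left out. Slc25a17, the peroxisomal carrier of coenzyme A and other cofactors, had 143, 134 and 115 in DEX + TE mice, 190, 156 and 139 in DEX mice and 153, 176 and 186 in control mice, at −0.30 ± 0.15 in the same comparison (adjusted p = 0.697). The DEX + TE and DEX arrays overlapped for both genes. Slc25a26, the S-adenosylmethionine carrier, had 1030 to 1280 in DEX + TE mice, 1186 to 1281 in DEX mice and 1298 to 1401 in control mice, an unadjusted exact permutation p of 0.0357 with all injected mice against control, where the smallest possible is 0.0119. Slc25a16, linked to coenzyme A transport, and Slc25a51, the NAD carrier, had log2 fold changes of 0.03 ± 0.10 and −0.03 ± 0.10 with DEX against control.

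Among carriers that long lacked a known substrate, Slc25a48 had 96.3, 85.6 and 92.5 in DEX + TE mice, 38.4, 66.2 and 51.6 in DEX mice and 61.9, 72.9 and 57.6 in control mice. The DEX + TE arrays lay above the other 6, at 0.85 ± 0.20 with DEX + TE against DEX (adjusted p = 0.409 in limma). The medians of the DEX + TE arrays, at 84.7 to 95, were all above those of the DEX arrays, at 71.3 to 77.7, and with arrays centred on their medians the difference was 0.59. Slc25a45 had 117, 92.8 and 31.7 in DEX + TE mice, 82, 46.4 and 106 in DEX mice and 136, 96.7 and 120 in control mice, at −0.66 ± 0.51 with DEX against control (adjusted p = 0.599), and between −0.92 and −0.32 with 1 array left out. Slc25a35 had 139 to 215 in DEX mice, all below the 220 to 275 of control mice (−0.57 ± 0.25, adjusted p = 0.352). Slc25a46, an outer membrane protein of mitochondrial shape, Slc25a34, Slc25a47 and Slc25a53 overlapped between DEX and control, with log2 fold changes between −0.16 and 0.03.

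**Figure D3:**
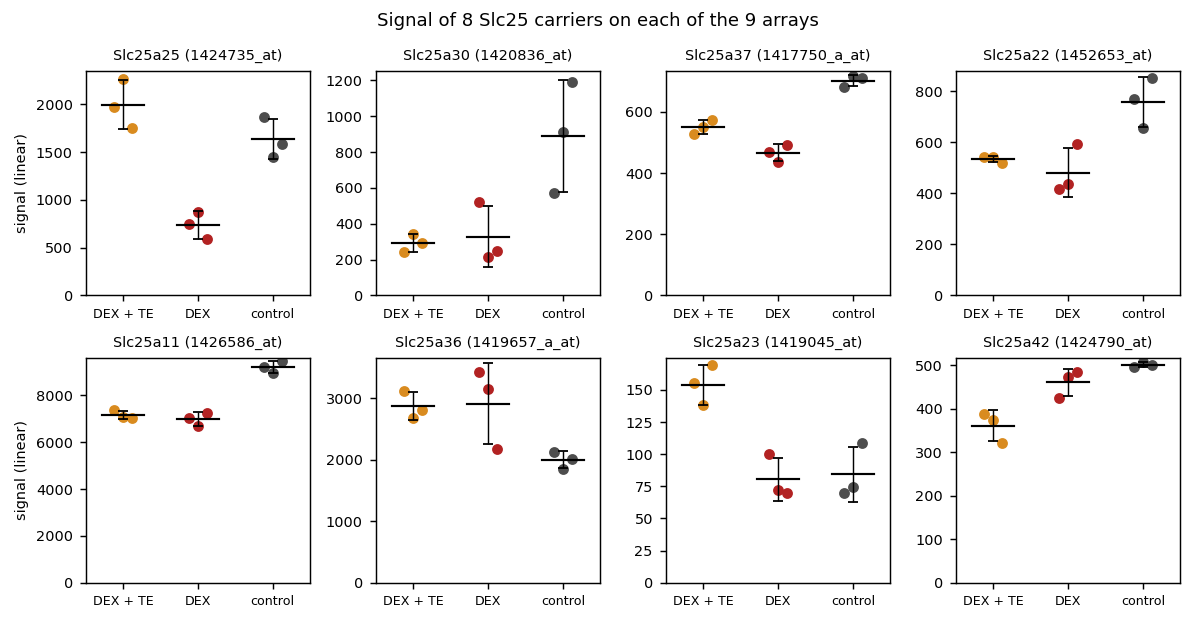
Signal on each array (linear intensity) for 8 Slc25 genes, with DEX + TE, DEX and control from left to right; points are mice, bars are means and error bars are SD (n = 3). Slc25a25 is lowest in the DEX group, at 588 to 876, and the injected arrays of Slc25a11, Slc25a22, Slc25a30 and Slc25a37 all lie below the control arrays.

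**Figure D4:**
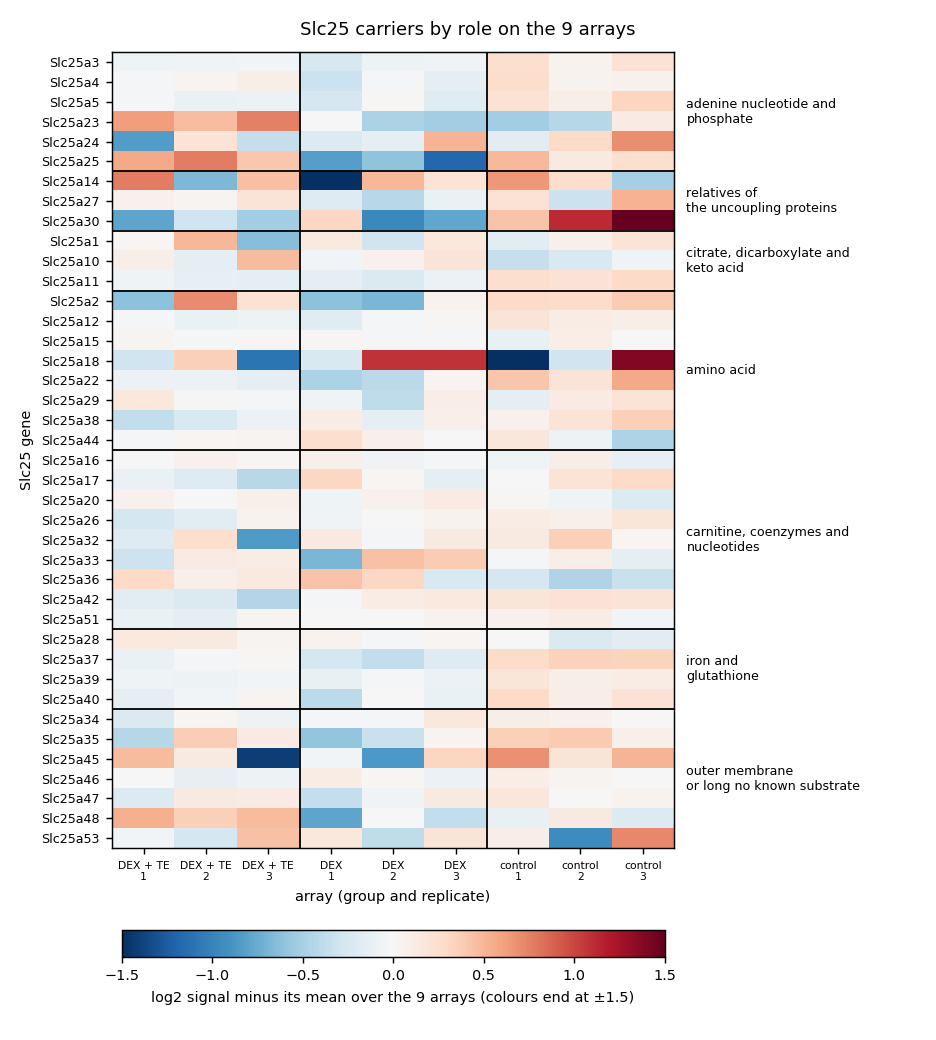
Log2 signal of the 40 Slc25 genes on the 9 arrays, minus each gene's mean over the arrays, with genes grouped by role and arrays in the order DEX + TE, DEX and control. Most rows are higher in the control columns, as 31 of 40 genes were with DEX against control, and Slc25a25 stands apart with low values in the DEX columns alone.

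Genes that work with the carriers were described from lists chosen by function, and in the fit used throughout 0 members of these lists were called in any comparison. Of the enzymes, Oat was called higher with the mean-variance trend (DEX against control, adjusted p = 0.0049 in limma). Shmt2, a matrix enzyme of serine and glycine metabolism, was called lower with its probe sets averaged, at −0.97 (all injected mice against control, adjusted p = 0.0339 in limma). Its brightest probe set had only −0.10 in that comparison (adjusted p = 0.654). On the list of enzymes that use carried substrates, 17 passed the filter, with 12 lower and 4 higher by value with DEX against control. Their median was −0.12. At an unadjusted p under 0.05, 7 were lower (9.15% of all genes were) and 2 higher (6.16% of all genes). The 7 include Ppif and Gpd2, which were listed although neither acts on a substrate that a carrier brings in. Ckmt2, the mitochondrial creatine kinase that takes up ATP leaving through Slc25a4, had 37252, 34770 and 36216 in DEX + TE mice, 31645, 36032 and 35511 in DEX mice and 48715, 46648 and 48026 in control mice. The injected arrays lay below the control arrays, at −0.48 with DEX against control (adjusted p = 0.0888 in limma). Oat, ornithine aminotransferase of the matrix, was higher by value, with 8854, 8913 and 8062 in DEX + TE mice, 11981, 8471 and 9784 in DEX mice and 6737, 6207 and 6297 in control mice (0.64, adjusted p = 0.11).

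Of 17 other transport proteins of mitochondria, 15 were lower by value with DEX against control and the median was −0.19, with 3 lower at an unadjusted p under 0.05, against 9.15% of all genes. Mpc1, a subunit of the mitochondrial pyruvate carrier, had a log2 fold change of −0.31, and Mcu, the pore of the calcium uniporter, −0.54 (adjusted p = 0.164 and 0.155 in limma). Of 11 genes for import of carriers into the inner membrane, 8 were lower by value, the median was −0.10, and 0 were under an unadjusted p of 0.05. With DEX + TE against DEX the medians of these 3 lists were 0.01, 0.00 and −0.08. Ucp3, the muscle uncoupling protein, which belongs to the same family under another symbol, had 1296, 983 and 1423 in DEX + TE mice, 1175, 1483 and 2683 in DEX mice and 2402, 2034 and 3108 in control mice, with overlap between DEX and control (−0.57, adjusted p = 0.471).

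Markers of other cell types differed between the groups too. The 6 fibroblast markers summed to 26705 to 28618 in DEX + TE mice, 17546 to 21042 in DEX mice and 32871 to 50353 in control mice, and 3 of them were called lower with DEX against control, where 0.6% of all genes were called. The 3 called were the collagen genes Col1a1, Col1a2 and Col3a1. Lum and Dcn had −1.35 and −0.50 in that comparison without a call, and Pdgfra had −0.04 (adjusted p = 0.957 in limma). The 5 macrophage markers summed to 1370 to 1591 in DEX + TE mice, 840 to 1005 in DEX mice and 896 to 1660 in control mice, with 0 called. The 5 neutrophil markers with a probe set of exactly 1 symbol summed to 314 to 742 in DEX + TE mice, 406 to 709 in DEX mice and 142 to 247 in control mice, with 0 called. These markers did not move together. With DEX against control S100a8 and S100a9 were higher by value and Mpo lower, and with DEX + TE against DEX each stood the other way. Elane and Camp did not pass the filter. Of 4 white adipocyte markers, 3 were higher by value with DEX against control and 2 were called higher with all injected mice against control, where 1.07% of all genes were called. Fabp4, the brightest of the 4, was lower by value, at −0.40 with DEX against control (adjusted p = 0.208 in limma). The 4 summed to 20158 to 22475 in DEX + TE mice, 16515 to 19970 in DEX mice and 20726 to 24677 in control mice. The 6 skeletal muscle fibre markers had a median of −0.45 with DEX against control, with 0 called. Their log2 fold changes were between −0.12 and 0.01 after quantile normalization and between −0.42 and −0.29 with median centring. They are among the brightest probe sets, which quantile normalization leaves little room to differ. The part of these differences in the levels of the carriers was not tested.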

How the data were processed

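Expression was measured on Affymetrix arrays of tibialis anterior, 1 per mouse, 3 mice in each of 3 groups taken from the sample labels. The authors deposited 1 linear intensity per probe set and array, with a mean of 500 on every array after 2% was trimmed at each end. The methods name Robust Multi-array Average, whose output is on the log2 scale, and for these linear intensities the sources used here give no program. The 64 manufacturer control probe sets were left out of 45101. Of the rest, 34945 had 1 gene symbol, 932 several and 9160 none, and 1 probe set that names a Slc25 gene together with another was not used. Of those with 1 symbol, 34741 were found by Entrez number in RefSeq (GRCm38.p6), with 0 symbols changed.

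Log2 of each intensity was taken without an offset, and probe sets were kept where a group mean reached log2 of 50, which is the measure of signal over background here. A model of 3 group means over all 9 arrays was fitted with limma 3.58.1 (R 4.3.3), with Benjamini-Hochberg adjustment over 29269 probe sets. The study used Rank Product with the same thresholds, and its methods name Robust Multi-array Average values as input. Here Rank Product was run as an alternative on log2 of the deposited intensities, with 100 permutations. It called 30 probe sets higher and 45 lower with DEX against control, fewer than the study reports, so it does not repeat the study's test. Other alternatives were array scaling, filters on low signal, an offset, the variance model, the arrays in the fit, the mean of a gene's probe sets and each array left out. Where 1 group lay under 50 on every array, a fold is given as at least the fold of the brighter group's mean over 50. P-values in limma set each difference against a spread between mice that is moderated over all probe sets tested. Precision is limited by how many arrays there were and by the choice of mice near the average of their group. Replicate numbers were not treated as pairs of mice, since the sample titles state no pairing. Deviations of same-numbered arrays correlated between −0.02 and 0.05, which shows no strong shared effect but cannot exclude a pairing. Promoter windows were read from RefSeq by symbol with Python 3.11.15, and figures were drawn with matplotlib 3.10.9.

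Values on every array are given for members called by limma, for the 6 highest and the 6 lowest log2 fold changes with DEX against control and with DEX + TE against DEX, for members with all injected arrays on 1 side of the control arrays and an unadjusted p under 0.05, for Slc25a25, and for Slc25a4, Slc25a3 and Slc25a20. Other probe sets and the remaining members were chosen after their values were seen. The members, roles, gene lists and motifs were chosen with earlier results of these data known.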

Additional observations from a re-analysis of the deposited data

How the results depend on the processing

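The median of the members with DEX against control stayed below 0 in every setting tried, and 0 members were called except as follows. Slc25a25 alone passed with DEX against control with a group mean of at least 100, with a mean over all arrays of at least 50 and with an offset of 16 (1 member each), and 3 passed with a mean-variance trend (Slc25a22, Slc25a25 and Slc25a30). That trend also gave 1 for DEX + TE against DEX (Slc25a25), 1 for DEX + TE against control (Slc25a30) and 1 for all injected mice against control (Slc25a30). For all injected mice against control, 1 passed with a group mean of at least 100 (Slc25a30) and 1 by adjusted p alone (Slc25a37), an alternative chosen after seeing the data. Rank Product, run here on the deposited intensities, called 0 members in each comparison, whereas the study lists Slc25a25 as higher with DEX + TE against DEX. Of the other Slc25 probe sets it called 1454284_at with all injected mice against control. Of all Slc25 probe sets, the count called with DEX against control was 0 with median centring, with no filter and with only the groups compared and 6 with the trend, and that for all injected mice against control was 0 with no filter.

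Median centring gave member medians of −0.23 with DEX + TE against DEX and −0.26 with DEX + TE against control. It left 4 members wholly higher (13.7% of all genes were) and 8 wholly lower (6.92%) with DEX against control, 3 higher (2.9%) and 16 lower (30.3%) with DEX + TE against DEX, and 6 lower (4.72%) with all injected mice. Quantile normalization left 2 wholly lower (6.35% of genes) with DEX + TE against DEX and turned Slc25a4 to 0.12. Averaging the probe sets of a gene left 1 of 39 wholly higher (9.37% of genes) and 9 wholly lower (11.8%) with DEX against control and 6 lower (5.69%) with all injected mice, and the log2 fold change became 0.00 for Slc25a25 with DEX against control, 0.15 for Slc25a24 and −0.26 for Slc25a27 with DEX + TE against DEX, and 0.05 for Slc25a39 and 0.17 for Slc25a42 with all injected mice. The cause was not tested.

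With each array left out in turn, 0 members were called in every comparison. The members wholly higher numbered 2 to 4 (9.66% to 14.8% of all genes) and wholly lower 15 to 18 (13.6% to 21.3%) with DEX against control, 5 to 9 (9.73% to 16.8%) and 1 to 5 (5.27% to 10.1%) with DEX + TE against DEX, and 1 to 3 (6.05% to 8.89%) and 11 to 13 (8.1% to 11.8%) with all injected mice, where fewer arrays have fewer chances to overlap. Probe sets called numbered 0 to 1 with DEX against control and 0 to 2 with all injected mice. The log2 fold change of Slc25a14 with DEX + TE against DEX ranged from −0.17, without DEX replicate 1, to 0.93. With the replicate number as a block the members called were 0 in each comparison. The medians stayed at −0.17 (DEX against control), 0.03 (DEX + TE against DEX), −0.11 (DEX + TE against control) and −0.19 (all injected mice against control). With that block 0 Slc25 probe sets were called with DEX against control or with all injected mice, although the sample titles state no pairing.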
